A study of Rattus norvegicus with 30 samples.

Results

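The genes described here are 8 regulators of lipid synthesis in rat liver and targets of theirs: the transcription factors *Srebf1*, *Srebf2* and *Mlxipl*, the sterol-sensing proteins *Scap*, *Insig1* and *Insig2*, and the glucose-responsive genes *Pklr* and *Txnip*. They were chosen by name, as all probe sets whose platform annotation names one of these genes alone, and they are 8 of the 10699 genes tested. The array carried 13 such probe sets, of which 12 were bright enough to be tested. Livers came from 30 male Sprague-Dawley rats that arrived at 4 weeks of age, adapted for 5 days and were fed for 14 days on 1 of 6 diets holding 200 g/kg of protein, with 5 rats and 1 array per rat on each diet. Casein was the protein of the control diet (C), to which a mixture of isoflavones, soybean polyphenols, was added in CI. Soy protein took the place of casein in S and, with isoflavones, in SI. Freeze-dried tofu supplied all the protein of T20, while tofu and casein supplied 100 g/kg each in T10. The isoflavone of CI and SI was set to the amount in T20, so T20 and SI differ in the soy product and not in the intended isoflavone level. All values are log2 of the intensity deposited by the authors, a level of 1 gene that is not comparable with that of another gene, and differences are log2 differences ± SE between means of 5 livers. Adjusted p-values are two-sided, from limma with Benjamini-Hochberg adjustment over all 18625 tested probe sets, and "called" means an adjusted p under 0.05. A pair of groups "did not overlap" where all 5 livers of 1 diet lay beyond all 5 of the other.

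SREBP-1c, an isoform made from *Srebf1*, drives fatty acid synthesis in liver, and SREBP-2, the product of *Srebf2*, drives cholesterol synthesis and uptake. Both are made as membrane-bound precursors. SCAP escorts them from the endoplasmic reticulum to the Golgi, where proteases release the active part, and INSIG-1 and INSIG-2 hold SCAP back when sterols are plentiful. *Insig1* is itself a target of SREBPs and *Insig2* has a liver transcript that insulin lowers. ChREBP, the product of *Mlxipl*, binds carbohydrate response elements with its partner MLX when glucose metabolites rise. *Pklr*, which encodes liver pyruvate kinase, the last step of glycolysis, and *Txnip*, which encodes thioredoxin-interacting protein, are classical ChREBP targets. The arrays measure transcripts and not the cleavage or movement of these proteins.

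Promoter stretches of 3 of the genes are printed because they hold, in capitals, letters of the response elements that these factors are known to read. They come from RefSeq on the GRCr8 build, 5′ to 3′ on the strand of the gene, out of windows of 250 bases before to 50 bases after a transcription start; 7 of the 8 genes matched the table, with 9 windows. The *Pklr* stretch lies at chr2:176841069-176841139 on the plus strand, the *Insig1* stretch at chr4:8057816-8057875 on the minus strand and the *Srebf2* stretch at chr7:115543123-115543185 on the plus strand.
Pklr: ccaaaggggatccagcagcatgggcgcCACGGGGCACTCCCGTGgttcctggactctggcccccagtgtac
Insig1: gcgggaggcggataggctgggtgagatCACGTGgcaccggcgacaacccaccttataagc
Srebf2: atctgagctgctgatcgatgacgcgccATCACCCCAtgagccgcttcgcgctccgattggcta

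Motifs were searched on both strands. The *Pklr* capitals, 168 to 152 bases before its start, have the form of a carbohydrate response element, CACGNG and CNCGTG around 5 free bases, which 0.0329% of the 33469 windows in the table hold; *Pklr* was the only member with it. The stricter form with CACGTG on both sides stood in 0.00299% of windows and in no member. CACGTG alone, the E-box, stood in *Insig1* 79 to 74 bases before its start and in *Scap* from 50 bases before, and in 6.42% of windows. The *Srebf2* capitals, ATCACCCCA, 157 to 149 bases before the start, are letters of a sterol regulatory element, held by 0.245% of windows. The same letters followed by C (0.125% of windows), TCACNCCAC (1.12%) and a direct repeat AGGTCA with 4 free bases between (0.00598%) stood in no member. CCAAT, read by NF-Y, a cofactor of SREBPs, stood in *Srebf1*, *Srebf2*, *Insig1*, *Insig2* and *Mlxipl* and in 37.5% of windows. The form found in *Pklr* and the letters found in *Srebf2* were added to the search after the sequences had been seen. A match of letters is a description of these windows.

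*Mlxipl* and *Pklr* were lower with T20 than with casein, *Insig1* was lower with S than with casein, and *Insig2* was lower with SI than with CI and higher with T20 than with SI. *Srebf1*, *Srebf2*, *Scap* and *Txnip* were called in no comparison. By the moderated F test over all diets 4 of the 8 genes were called, *Insig2* (adjusted p = 0.00963), *Mlxipl* (0.00948), *Pklr* (0.0272) and *Insig1* (0.0439), where 12.9% of all tested probe sets were; 5 had an unadjusted p under 0.05. The *Pklr* call in this test was lost without T20 replicate 1 (0.0914), 2 (0.0548) or 5 (0.0748), with array weights (0.0510) and without the 5 livers in which the clock gene *Dbp* was high (0.0542). The array of a liver had a median intensity of 216.9 to 254.7; precision is limited by the number of arrays.

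Markers of hepatocytes were present in every liver: 7 tested marker genes summed to an intensity of 343680 to 470760, with overlapping ranges in all diets, and none was at the floor. Single markers of other cells did move. In T20 the stellate cell and pericyte marker *Rgs5* (1 of 6 stellate markers called) was higher than in C by 0.76 ± 0.13 and than in SI by 0.91 ± 0.13 (adjusted p = 0.00103 and 0.00024). The summed stellate intensity ran from 14247 to 16709 in T20, 14035 to 16804 in C and 13129 to 19189 in SI. The elastase gene *Cela1*, the 1 tested of 3 exocrine pancreas markers, was higher in T20 than in C by 0.68 ± 0.19 and than in SI by 1.13 ± 0.19, and lower in SI than in CI at -0.68 (adjusted p = 0.0351, 0.00112 and 0.0182). Its intensity ran from 1959 to 5635 in T20, from 1814 to 2260 in C, from 1113 to 1797 in SI and from 1922 to 2905 in CI. All 3 exocrine pancreas markers were on the array, and those other than *Cela1* lay below the brightness filter. *Lyve1*, 1 of 4 endothelial markers, was higher in T20 than in C by 0.35 ± 0.10 (adjusted p = 0.0404), where the summed endothelial intensity was 10847 to 12720 in T20 and 9793 to 11276 in C. In SI against CI *Acta2* and *Serpina1*, of stellate cells and hepatocytes, were higher by 0.33 and 0.24 (adjusted p = 0.0442 and 0.0157). These are the comparisons in which *Mlxipl*, *Pklr* and *Insig2* were called, and the part of other cells in those calls was not tested. In whole liver, fewer cells of a type and less RNA per cell cannot be told apart.

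**Figure D1:**
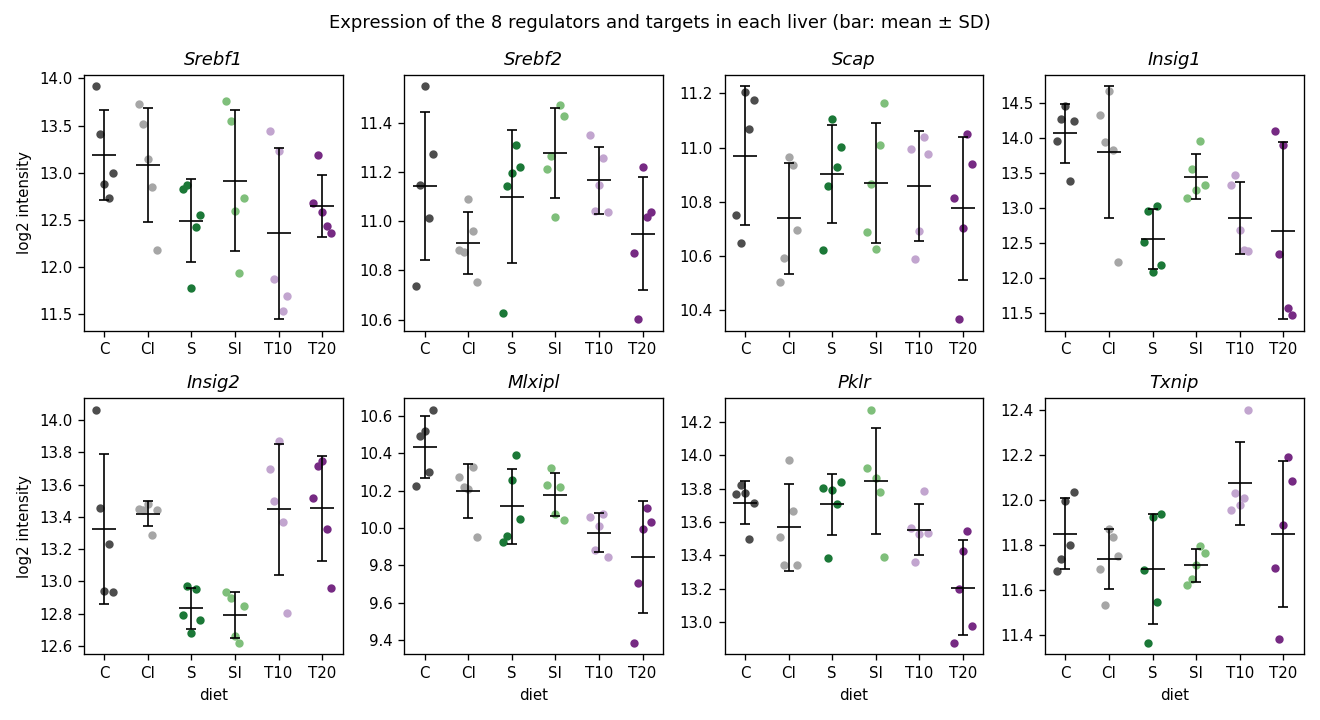
Each panel plots the log2 intensity of 1 gene (vertical axis, its own range in each panel) against the 6 diets, with a point per liver and a bar for the mean ± SD of 5 livers. *Mlxipl* and *Pklr* are lowest in T20, *Insig2* is lowest in S and SI, and *Insig1* in T20 runs from 11.47 to 14.10.

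*Mlxipl*, the transcript of ChREBP, was highest in C and fell with T20. The 5 C livers measured 10.22, 10.49, 10.52, 10.30 and 10.63, and the 5 T20 livers 9.39, 9.70, 9.99, 10.11 and 10.03. Every T20 liver lay below every C liver, and T20 replicate 1 was the lowest of all 30. The difference was -0.59 ± 0.12 (adjusted p = 0.0038) with a 95% interval from -0.82 to -0.35. The call held whichever of the 10 livers was left out (adjusted p 0.0033 to 0.0156). Fitted on the T20 and C livers alone it had an adjusted p of 0.0679, and over the other alternatives it ranged from 0.0022 to 0.0171.

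With less tofu the same gene lay between these levels. The T10 livers measured 10.06, 9.88, 10.01, 10.07 and 9.84, all below every C liver, with a difference of -0.46 ± 0.12 that was not called (adjusted p = 0.0944; 0.0816 to 0.236 with a liver left out). It was called with array weights (0.0349), which count noisier arrays less; over all alternatives the adjusted p reached 0.445. T20 and T10 differed by -0.13 ± 0.12 (adjusted p = 0.862), less than the SD of 0.30 among T20 livers. The means of the other diets were 10.20 ± 0.15 (SD, n = 5) in CI, 10.18 ± 0.12 in SI and 10.12 ± 0.20 in S, and these 3 neighbours in the order of levels differed by less than their SDs. Their differences from C were -0.24, -0.26 and -0.32, with adjusted p = 0.576, 0.181 and 0.0924; S was called without S replicate 4 (0.0489, range 0.0489 to 0.218). Against SI, T20 had a difference of -0.33 ± 0.12 (adjusted p = 0.0994). That was called without T20 replicate 4 (0.0494, range 0.0494 to 0.311).

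*Pklr*, downstream of ChREBP and the gene whose promoter holds the carbohydrate response letters printed above, was also lowest with T20. By the brighter of its probe sets the C livers measured 13.77, 13.82, 13.78, 13.50 and 13.71 and the T20 livers 12.88, 13.20, 13.43, 13.54 and 12.98. T20 replicate 4 lay above C replicate 4, so the groups overlapped. The difference was -0.51 ± 0.14 (adjusted p = 0.0368), 1.42-fold lower. The second probe set gave -0.62 ± 0.16 (adjusted p = 0.029) with no overlap, the T20 livers running from 11.82 to 12.46 and the C livers from 12.49 to 12.92. The 2 probe sets correlated at 0.934 over the 30 livers, a description, since they measure the same RNA. The call by the brighter probe set was lost when C replicate 1, 2, 3 or 5 or T20 replicate 1, 2 or 5 was left out (adjusted p 0.02 to 0.12). It was also lost with array weights (0.098), in a fit of the T20 and C livers alone (0.0809), without the brightness filter (0.0549) and without C replicate 3 and CI replicate 3 (0.0688).

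Soy protein with isoflavones did not share that level of *Pklr*. The SI livers measured 13.92, 14.27, 13.86, 13.78 and 13.39, the highest mean of the 6 diets, and T20 lay below them by -0.64 ± 0.14 (adjusted p = 0.0121; second probe set -0.66, adjusted p = 0.0226). SI replicate 5 lay within the T20 range, so the groups overlapped; the call was lost without SI replicate 2 (0.0543, range 0.00498 to 0.0543) and in a fit of the T20 and SI livers alone (0.110). S, with 13.80, 13.39, 13.79, 13.70 and 13.84, differed from C by -0.01 ± 0.14, with a 95% interval from -0.30 to 0.28. CI ran from 13.34 to 13.97 and T10 from 13.36 to 13.78, and T10 differed from C by -0.16 (adjusted p = 0.751). Between T20 and T10 the difference was -0.35, which was not called (adjusted p = 0.636). In order of means SI, C, S, CI and T10 each differed from the next by 0.14 or less, below the larger SD of each pair, and the step from T10 to T20 of 0.35 exceeded the SD of either.

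*Txnip*, whose protein curbs glucose uptake and binds thioredoxin, had nearly the same mean in C and T20. The means were 11.85 ± 0.16 (SD, n = 5) in C and 11.85 ± 0.32 in T20, a difference of -0.00 with a 95% interval from -0.26 to 0.25. T10 had the highest mean, its livers at 11.95, 12.03, 11.97, 12.01 and 12.40, with a difference from C of 0.22 ± 0.13 (adjusted p = 0.574). The T20 livers ran from 11.38 to 12.19, so the highest of them lay above 4 of the T10 livers. S and SI had means of 11.69 and 11.71. The F test gave an adjusted p of 0.169 and no comparison called the gene. In 1 of 13 other settings the F test called it (adjusted p = 0.0373, range 0.0373 to 0.574).

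**Figure D2:**
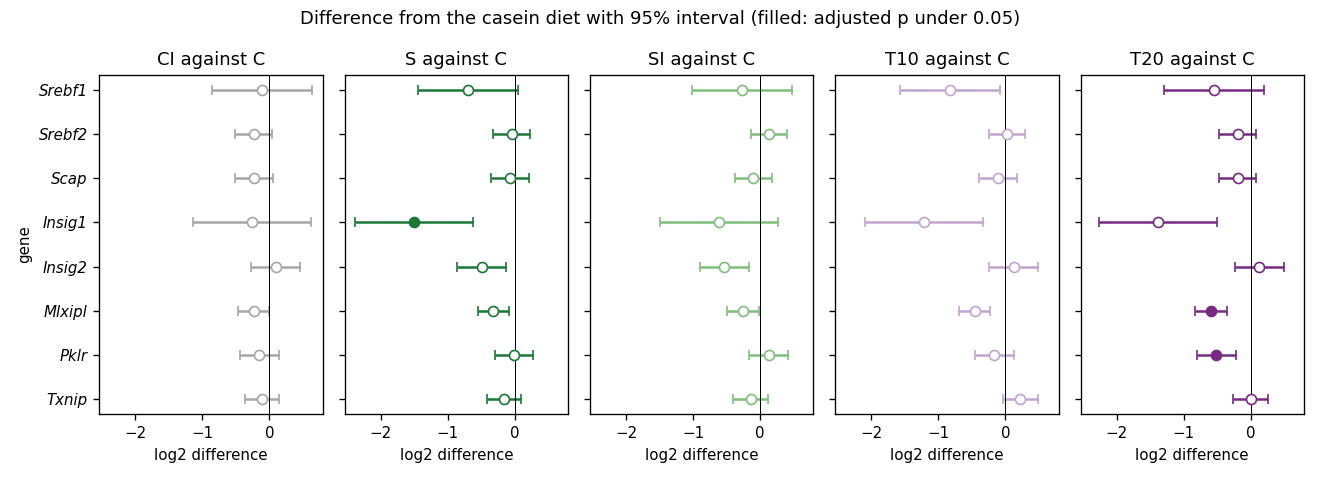
The 5 panels plot, for each gene, the log2 difference from the casein diet (horizontal axis, dot) with its 95% interval from limma for CI, S, SI, T10 and T20. Filled dots are called: *Insig1* in S at -1.51, and *Mlxipl* and *Pklr* in T20 at -0.59 and -0.51; all 5 panels share the C livers.

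*Insig1*, the SREBP-induced anchor of SCAP, fell with S. The C livers measured 13.96, 14.28, 14.46, 13.38 and 14.25 and the S livers 12.52, 12.96, 12.09, 13.04 and 12.19, with no overlap. The difference of -1.51 ± 0.43, 2.84-fold lower, was the largest of any of the 8 genes in any comparison and had an adjusted p of 0.0283. It was lost when C replicate 2, 3 or 5 or S replicate 1, 3 or 5 was left out (adjusted p 0.0243 to 0.0755). The F test call was lost without any of 21 of the 30 livers (0.00883 to 0.0851). It was kept without C replicate 4, CI replicate 5, S replicate 4, SI replicate 3, T10 replicate 1 or 2, or T20 replicate 1, 3 or 5.

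The T20 livers differed widely in *Insig1*. They measured 14.10, 12.34, 13.90, 11.57 and 11.47, with the largest SD of the 6 diets (1.26), and the T10 livers 13.33, 13.48, 12.69, 12.40 and 12.38. T20 replicates 1 and 3 lay among the C livers, and T20 replicates 4 and 5 were the lowest of all 30. The difference from C was -1.39 ± 0.43 for T20 (adjusted p = 0.0602) and -1.21 ± 0.43 for T10 (adjusted p = 0.319), neither called. T20 was called without C replicate 4 (0.0476), T20 replicate 1 (0.0245) or T20 replicate 3 (0.0247), over a range of 0.0245 to 0.145. It was also called in 3 of 13 other settings, among them quantile normalization (0.0357). The SI livers, at 13.15, 13.55, 13.26, 13.96 and 13.32, all lay above every S liver. That difference of 0.89 ± 0.43 was not called (adjusted p = 0.999), in a comparison where no probe set was. In CI 4 livers measured 13.83 to 14.66 and CI replicate 5 measured 12.23. The interaction, the isoflavone difference with soy protein less that with casein, was 1.16 ± 0.61 (adjusted p = 0.563).

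*Insig2*, the INSIG that is not induced by SREBPs, was lowest in both soy protein diets. By the brighter probe set the S livers measured 12.79, 12.97, 12.68, 12.96 and 12.76 and the SI livers 12.93, 12.90, 12.66, 12.62 and 12.85. The other 4 diets had means of 13.32 to 13.45, neighbours that differed by 0.10 or less, below their largest SD of 0.47. The CI livers measured 13.45, 13.44, 13.48, 13.29 and 13.44, all above every SI liver, and SI lay below CI by -0.63 ± 0.18 (adjusted p = 0.022), 1.55-fold lower. The second probe set gave -1.09 ± 0.30 (adjusted p = 0.0182), again with no overlap. The call was lost without SI replicate 4 (0.0523, range 0.0269 to 0.0523) and with arrays centred on the median (0.0587).

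Tofu did not share the low level of *Insig2*. The T20 livers, at 13.52, 13.72, 13.74, 13.33 and 12.96, all lay above every SI liver, a difference of 0.66 ± 0.18 (adjusted p = 0.036), 1.58-fold higher. It was lost when SI replicate 2, 3, 4 or 5 or T20 replicate 1, 2 or 3 was left out (adjusted p 0.0168 to 0.0955), with arrays centred on the median (0.0672), without the brightness filter (0.0540) and in a fit of the T20 and SI livers alone (0.0802). The second probe set gave 0.89 (adjusted p = 0.0933). T20 and T10 differed from C by 0.13 ± 0.18 and 0.12 ± 0.18, with 95% intervals from -0.24 to 0.49 for both. Against C, S had a difference of -0.49 ± 0.18 (adjusted p = 0.0934) and SI of -0.53 ± 0.18 (adjusted p = 0.0682). The C livers ran from 12.93 to 14.06, and C replicate 1 was the highest of all 30. SI was called without C replicate 3 (0.0443) or C replicate 5 (0.0428), over a range of 0.0428 to 0.237.

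*Srebf1* varied as much between livers of a diet as between diets. By the brighter probe set the C livers measured 13.92, 13.41, 12.88, 12.73 and 13.00, the S livers 12.83, 12.87, 11.78, 12.42 and 12.55 and the T20 livers 12.67, 13.19, 12.58, 12.43 and 12.36. The T10 livers fell into a pair at 13.45 and 13.23 and 3 at 11.87, 11.53 and 11.69, and every group overlapped C. The differences from C were -0.70 ± 0.36 for S, -0.83 ± 0.36 for T10, -0.54 ± 0.36 for T20, -0.27 for SI and -0.10 for CI, and none was called (adjusted p = 0.272 for S, 0.432 for T10 and 0.426 for T20). The 95% intervals ran from -1.44 to 0.05 for S and from -1.29 to 0.21 for T20. By the second probe set S lay below C in every liver, at -0.81 ± 0.32 (adjusted p = 0.133). The probe sets correlated at 0.973 over the 30 livers; neither is known here to tell the SREBP-1a and SREBP-1c transcripts apart.

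The spread within diets was widest for *Insig1* and *Srebf1*. By the brighter probe sets their SDs within diets were 0.73 and 0.62, at the 98.3 and 97.2 percentiles of all tested probe sets, whose median was 0.21. Those of *Insig2*, *Pklr*, *Scap*, *Srebf2*, *Txnip* and *Mlxipl* were 0.30, 0.23, 0.22, 0.22, 0.20 and 0.18. The second probe sets of *Srebf1* and *Insig2* had SDs of 0.55 and 0.51, at the 96 and 95 percentiles. The clock output gene *Dbp*, whose level swings over the day, was high in a few livers. It lay between 6.53 and 8.24 in 25 livers and between 8.98 and 12.06 in 5, CI replicate 5, T10 replicates 4 and 5 and T20 replicates 4 and 5. In each of these 5 livers *Srebf1* and *Insig1* were the lowest or the second lowest of their diet. *Insig2* was so in the T10 and T20 livers among them and ranked 3 from the lowest in CI replicate 5. *Insig1* with *Dbp* was not among the pairs correlated below. Without these 5 livers the T20 difference of *Insig1* from C was -0.61 (adjusted p = 0.255), that of *Srebf1* -0.37 (0.585), that of *Mlxipl* -0.74 (0.0022) and that of *Pklr* -0.55 (0.0371). *Insig1* in S then had an adjusted p of 0.00166, *Insig2* was called in S (0.0397) and SI (0.0282) against C and T20 against SI rose to 0.87 (0.00522). The time of day at which livers were taken and whether rats had been fasted are not given in the sources used here. Of 12 tested clock genes limma called *Nfil3* lower in S, at -1.04 (adjusted p = 0.0215), and in SI (0.0293), *Clock* and *Npas2* lower in T20, at -0.59 and -0.51 (0.0266 and 0.0369), and *Clock* lower in SI than in CI, at -0.46 (0.0497). Of 9 genes that fasting raises, *Pdk4*, which restrains pyruvate oxidation, differed from C by -1.07, -1.62 and -1.48 in S, SI and T20 (adjusted p = 0.024, 0.000922 and 0.00448) and SI from CI by -1.62 (0.000736). *Angptl4*, an inhibitor of lipoprotein lipase, differed in T20 from C by -1.25 (0.00203). The clock list and the fasting list each had 1 call in S, 1 in SI, 1 in SI against CI and 2 in T20. Of all probe sets 7.25%, 7.18%, 11.6% and 4.5% were called in these comparisons, so the counts of 1 lie near the background. The part of *Dbp*, the clock or feeding state in the members' differences was not tested.

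*Srebf2* and *Scap* were called in no comparison. *Srebf2*, by its brighter probe set, was highest in SI, at 11.21, 11.27, 11.02, 11.47 and 11.43, and lowest in CI, at 10.88, 10.87, 11.09, 10.96 and 10.75. The difference of 0.37 ± 0.13 was not called (adjusted p = 0.0701). It was called without SI replicate 3 (0.0425, range 0.0425 to 0.159). It was also called in 3 of 13 other settings, among them arrays centred on the median (0.0233). Its differences from C lay between -0.23 and 0.13. A second, dim probe set, with diet means of 6.37 to 7.24, lay below the brightness filter of 7.39 in every diet and correlated with the first at -0.111. It gave the opposite sign in SI against CI, at -0.86 ± 0.23 with no overlap, and lay lower than in C at -0.78 in SI, -0.72 in T10 and -0.54 in T20. Its unadjusted limma p-values were 0.00173 for the F test, 0.000687 for SI against CI and 0.00177, 0.00354 and 0.0231 for those 3, with none adjusted since it was not among the tested probe sets. Which probe set follows *Srebf2* is not known here. *Scap* had diet means of 10.74 to 10.97, neighbours that differed by 0.08 or less where the SDs were 0.18 to 0.26, and its F test had an adjusted p of 0.723. Its 2 probe sets correlated at 0.0763, so which of them follows the transcript is not known here.

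**Figure D3:**
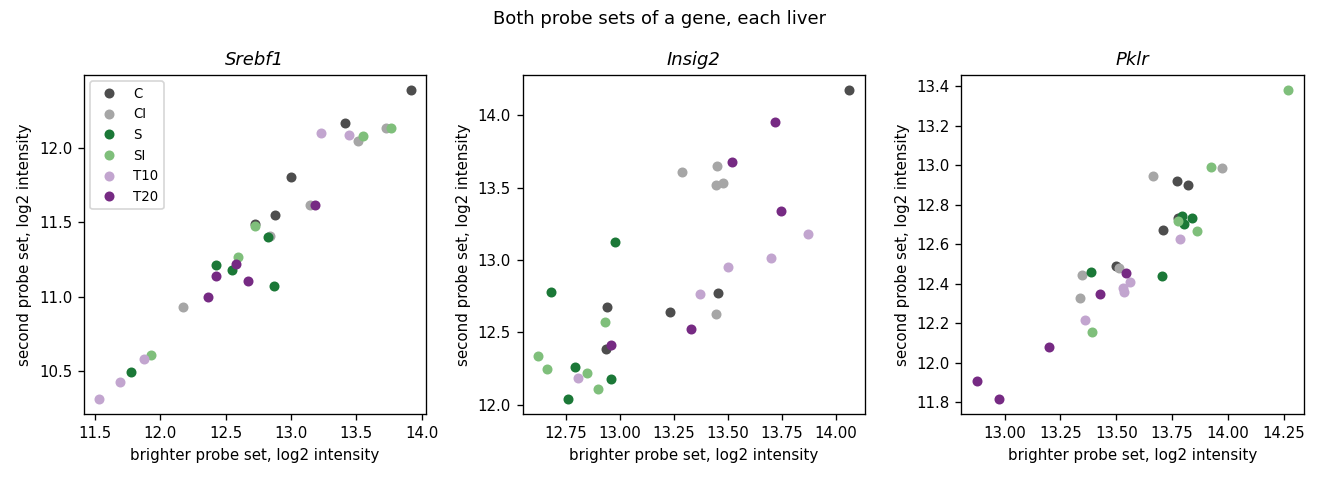
Each panel sets the log2 intensity of the second probe set (vertical axis) against that of the brighter one (horizontal axis) for *Srebf1*, *Insig2* and *Pklr*, with a point per liver coloured by diet. The points lie close to a line for *Srebf1* (r = 0.973) and *Pklr* (r = 0.934) and more widely for *Insig2* (r = 0.792).

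Set out by comparison, the 8 genes gave these counts. T20 against C called 2 lower, where 4.5% of all tested probe sets were called and 2.74% were called lower; 1 member, *Mlxipl*, had no overlap, against 4.99% of probe sets. The members' median difference was -0.35 beside -0.01 over all tested probe sets, and 7 of 8 differences were negative. S against C called 1 lower, where 7.25% of probe sets were called and 4.27% called lower, and 1 had no overlap against 7.5%, with medians of -0.24 and -0.04. In the other comparisons with C limma called none: 0 in T10 (0.322% of probe sets; 3 at an unadjusted p under 0.05), 0 in SI (7.18%; 2) and 0 in CI (0%; 1). Groups without overlap numbered 1 in T10 (1.94% of probe sets), 1 in SI (7.67%) and 0 in CI (1.73%). The median difference of the members was -0.14 in T10 and -0.20 in SI beside -0.03 over all probe sets in both, and -0.19 in CI beside -0.00. These 5 comparisons share the C livers.

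Among the comparisons without C, SI against CI called 1 lower, *Insig2* (11.6% of probe sets called, 6.14% lower), with 1 not overlapping (10.1%). T20 against SI called *Insig2* higher and *Pklr* lower (3.51% of probe sets), with 1 not overlapping (4.05%) and a median of -0.30 beside 0.02. Limma called 0 of 8 in SI against S, where 0% of probe sets were called, with 1 at an unadjusted p under 0.05 and 1 not overlapping (0.489%). It called 0 in T20 against T10 (0% of probe sets), with 1 at an unadjusted p under 0.05 and 0 not overlapping (1.08%). For the interaction of isoflavone and protein it called 0 (0.0161% of probe sets), with 1 at an unadjusted p under 0.05.

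Of 19 tested genes that SREBP-1c is known to drive, which make and desaturate fatty acids, 11 fell with T20, where 2.74% of all probe sets were called lower, and 11 with S (4.27%). The medians of the list were -0.64 and -0.61, and the other 8 genes were not called. *Fasn*, fatty acid synthase, fell by 1.99 ± 0.47 on the log2 scale with T20 (adjusted p = 0.0144) and by 1.72 ± 0.47 with S (adjusted p = 0.0212), beside the *Srebf1* differences of -0.54 and -0.70 that were not called. *Fasn* had differences of -1.72 in T10 (adjusted p = 0.134) and -0.93 in SI (adjusted p = 0.234). SI called 6 of the 19 lower, where 3.69% of all probe sets were lower, and T10 called 3, *Acacb* (mitochondrial acetyl-CoA carboxylase), *Me1* (malic enzyme) and *Pnpla3*, where 0.193% were. No gene of the list rose. With the 5 livers of high *Dbp* left out the counts were 11 for T20, 11 for S, 6 for SI and 5 for T10, and without C replicate 3 and CI replicate 3 they were 11, 10, 6 and 2. Leaving out single livers gave 10 to 11 in T20, 8 to 12 in S (8 without C replicate 1 or S replicate 3) and 2 to 3 in T10 (2 without C replicate 3, C replicate 5 or T10 replicate 2). These lists were drawn up with results of these livers known, so they are no independent evidence of direction; the genes named beyond *Fasn* and *Arrdc4* were chosen after their values were seen.

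Of 20 tested ChREBP target genes 9 fell with T20, where 2.74% of all probe sets were called lower, and 11 were not called; the median of the list was -0.38. Those that fell were *Arrdc4*, the arrestin relative of *Txnip*, which fell by 0.62 ± 0.18 (adjusted p = 0.0478), *Pgd*, *Tkt* and *Taldo1* of the pentose phosphate pathway by 0.76 ± 0.12, 0.51 ± 0.13 and 0.26 ± 0.07, *Mttp* and *Tm6sf2* of lipoprotein assembly by 0.38 ± 0.08 and 0.39 ± 0.11, and *Acly*, *Fasn* and *Elovl6*, which also stand in the SREBP-1c list. With S 4 fell (4.27% of all probe sets), *Arrdc4*, *Acly*, *Fasn* and *Elovl6*, *Arrdc4* by 0.84 ± 0.18 (adjusted p = 0.00409); outside the genes of both lists that leaves *Arrdc4*. T20 lay below SI for 6 of the 20, *Gpd1*, *Tkt*, *Taldo1*, *Pgd*, *Mttp* and *Tm6sf2*, where 1.87% of all probe sets were lower; none of these stands in the SREBP-1c list. T20 against C was 5 of 20 without C replicate 3, T20 replicate 1 or T20 replicate 2 (5 to 9 over the livers left out), 5 without C replicate 3 and CI replicate 3, 6 without the livers of high *Dbp* and 6 with arrays centred on the median. T20 against SI was 3 without SI replicate 2 and 9 after quantile normalization. The count in S was 1 without C replicate 1 or S replicate 3. In SI limma called 0 (7.18% of all probe sets), with 5 at an unadjusted p under 0.05. In T10 it called *Pgd* alone, lower (0.193% of all probe sets), a count that was 0 when C replicate 1, 2, 3 or 5 or T10 replicate 2, 4 or 5 was left out. SI against CI called 1 of the 20, *Tm6sf2*, higher at 0.40 ± 0.11 (adjusted p = 0.0223), where 11.6% of all probe sets were called. That comparison called 5 higher with arrays centred on the median and 0 without the livers of high *Dbp*.

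A minority of the SREBP-2 targets, the cholesterol synthesis genes, was called lower in the soy protein diets. Of 19 tested, S called 5 lower (4.27% of all probe sets were), *Lss*, *Tm7sf2*, *Stard4*, *Sc5d* and *Ebp*, at -1.26, -0.91, -0.86, -0.62 and -0.58, with a list median of -0.34. SI called 3 of these, *Stard4*, *Sc5d* and *Ebp* (3.69% of all probe sets), with a median of -0.20. With isoflavone in both diets, SI against CI called 2 higher, *Mvk* at 0.38 and *Hsd17b7* at 0.50, and 2 lower, *Stard4* at -0.67 and *Ebp* at -0.40, with a median of -0.00 (11.6% of all probe sets called). Leaving out single livers gave 0 to 2 higher and 1 to 3 lower, with 0 higher without CI replicate 3, 4 or 5, for example. Without the livers of high *Dbp* SI against CI called 0 higher and 4 lower. Without C replicate 3 and CI replicate 3 it called 0 higher and 2 lower. By limma T20 and T10 called 0, with 5 and 1 genes at an unadjusted p under 0.05 and medians of -0.13 and -0.05, and *Ebp* was higher in T20 than in SI by 0.55 ± 0.11 (adjusted p = 0.00569). In S, where those 5 genes and *Insig1* fell, *Srebf2* differed from C by -0.05 ± 0.13 by its brighter probe set. Its dim second probe set, below the brightness filter, gave -0.36 ± 0.23, and which of them follows *Srebf2* is not known here. The counts in S and SI were 5 and 3 whichever liver was left out, and 7 and 4 without the livers of high *Dbp*. T20 called 1 lower without C replicate 2 and 2 lower after quantile normalization. Without the livers of high *Dbp* T20 called 1 higher and 0 lower than C, with a list median of 0.05. In that setting T20 against SI called 3 higher, with a median of 0.25.

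**Figure D4:**
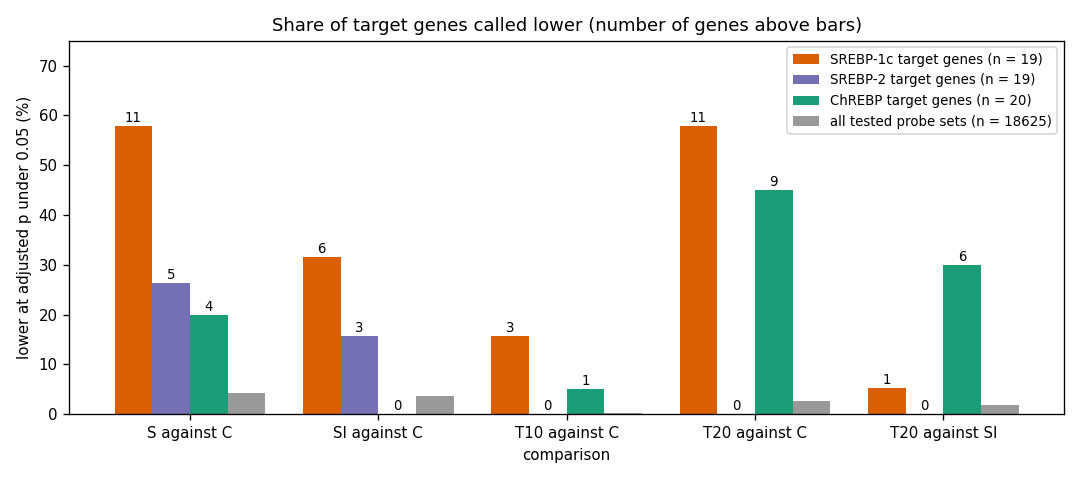
Bars give the percentage of tested target genes called lower (vertical axis) in 5 comparisons for the SREBP-1c, SREBP-2 and ChREBP lists and for all tested probe sets (grey), with the number of genes above each bar. SREBP-1c targets reach 11 of 19 in both S and T20, SREBP-2 targets are lower in S (5) and SI (3), and ChREBP targets in T20 (9 against C, 6 against SI).

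Partners and processing genes showed few calls. *Mlx*, the obligate partner of ChREBP, fell with S by 0.36 ± 0.08 (adjusted p = 0.00844) and differed by -0.23 with T20 (adjusted p = 0.121). The list of 22 upstream regulators had 3 calls in S, 2 in SI, 1 in T20 and 2 in SI against CI, beside 7.25%, 7.18%, 4.5% and 11.6% of all probe sets, so the counts in SI, T20 and SI against CI lie near the background. Beside *Mlx* the genes called were *Hnf4a*, a hepatocyte transcription factor, and *Med15*, the Mediator subunit that SREBPs contact, both lower in S at -0.53 and -0.38, *Med15* lower in T20 at -0.47, and *Usf2* higher and *Prkaa2*, an AMP-activated kinase subunit, lower in SI at 0.32 and -0.38. SI against CI called *Prkaa2* lower and *Sik1*, a kinase, higher. Of 8 genes that cleave or degrade SREBPs and INSIGs, limma called none against C (1 or 2 per diet at an unadjusted p under 0.05). *Mbtps2*, the site-2 protease, was lower in SI than in CI at -0.52 ± 0.17 (adjusted p = 0.0476). It was 1 of the 8, where 11.6% of all probe sets were called and 6.14% were lower, so this count lies near the background. *Mbtps1*, the site-1 protease, *Khk*, fructokinase, and *Nr1h3*, the sterol receptor LXR-alpha that drives *Srebf1*, were called nowhere. Of 10 LXR targets, the sterol transporter genes *Abcg5* and *Abcg8* rose in T20 and T10 and *Scd* fell in T20. All probe sets were called at 4.5% in T20 and 0.322% in T10. Those rises stand beside *Srebf1*, another LXR target, at differences of -0.54 and -0.83 that were not called.

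Within diets, livers with more *Srebf1* had more *Fasn*. For pairs of genes the deviation of each liver from its diet mean was correlated over the 30 livers, so diet differences play no part; 12 pairs were computed, with two-sided p-values from 100000 permutations within diets, adjusted over the 12. *Srebf1* and *Fasn* had r = 0.793 (adjusted p = 0.00012) and rho = 0.793 (adjusted p = 0.00012), with r = 0.804 without the 2 livers farthest in *Srebf1*. *Srebf1* and *Insig2* had r = 0.629 (adjusted p = 3e-04) and rho = 0.734 (adjusted p = 0.00012), with r = 0.574 without the 2 farthest. *Srebf2* and *Scap*, by their brighter probe sets, had r = 0.680 (adjusted p = 0.00108) and rho = 0.657 (adjusted p = 0.00236), with r = 0.636. The 2 probe sets of *Srebf2* correlated at -0.111 and those of *Scap* at 0.0763. Which of them follow the transcripts is not known here, so this pair describes the brighter probe sets alone. Both genes of a pair were read on the same array and scaled together, and the part of this in the correlations was not tested.

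Other pairs were weaker. *Mlxipl* and *Pklr* had r = 0.512 (adjusted p = 0.0247), while rho = 0.460 missed the threshold (adjusted p = 0.0711), and without T20 replicate 1 and CI replicate 5 r was 0.397. *Srebf1* and *Insig1* had r = 0.272 (adjusted p = 0.194; rho = 0.291, adjusted p = 0.173), *Srebf2* and *Insig1* r = 0.284 (0.219; rho = 0.346, 0.134), *Mlxipl* and *Txnip* r = 0.352 (0.245; rho = 0.352, 0.173), *Srebf1* and *Pklr* r = 0.127 (0.595; rho = 0.113, 0.625) and *Mlxipl* and *Srebf1* r = -0.006 (0.971; rho = -0.080, 0.647). *Dbp* fell into separate clusters, so no value over all 30 livers is given for its 3 pairs, which are among the 12. Over all 30 the r of *Insig2* and of *Srebf1* with *Dbp* was below 0, and *Srebf1* and *Mlxipl* missed the threshold. Over the 25 livers of low *Dbp*, with p-values adjusted over 3 pairs, *Mlxipl* rose with *Dbp* (r = 0.582, adjusted p = 0.00324; rho = 0.608, adjusted p = 0.00609; r = 0.665 without the 2 farthest), while *Insig2* had r = 0.033 (adjusted p = 0.917; rho = 0.184, 0.464) and *Srebf1* r = 0.339 (0.222; rho = 0.385, 0.150).

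**Figure D5:**
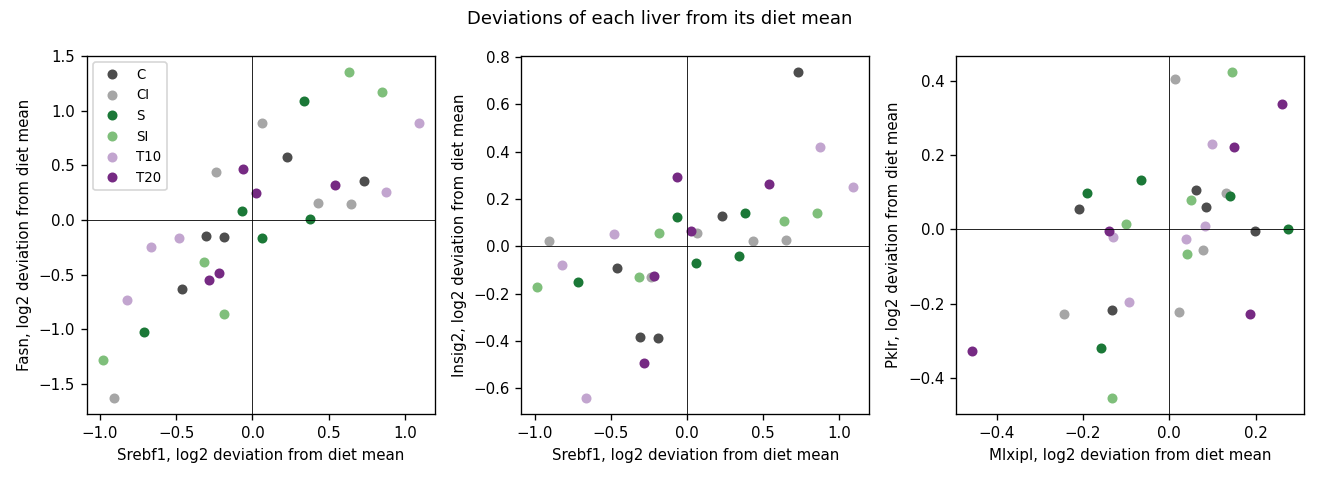
Each panel plots the log2 deviation of each liver from its diet mean for *Fasn* against *Srebf1*, *Insig2* against *Srebf1* and *Pklr* against *Mlxipl*, coloured by diet. The points rise together in the first pair of panels (r = 0.793 and 0.629) and more loosely in the third (r = 0.512).

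The genes most like each member over the 30 livers, by Pearson r among the genes tested and diet differences included, are given as a description. For *Pklr* they were *Tkt* (0.771), *Acaca* (0.716) and *Gpd1* (0.7097). For *Srebf1* they were the clock repressor *Cry1* (0.861), the adiponectin receptor *Adipor2* (0.848) and *U2af1* (0.826), and for *Insig2* the bile acid conjugating enzyme *Baat* (0.822), *Lactb2* (0.809) and *Alg13l1* (0.807). *Mlxipl* was most like *KIAA0319l* (0.826), *Ctnna1* (0.816) and *Pan2* (0.795), and *Insig1* like *Scly* (0.770), *Smyd2* (0.755) and *Commd6* (0.754). *Srebf2* was most like *Tsc2* (0.861), *Ogdh* (0.802) and *Akt2* (0.801), *Scap* like *Gas2l1* (0.827), *Bag6* (0.822) and *Tbc1d9b* (0.814), and *Txnip* like *Dhtkd1* (0.811), *Aldh2* (0.785) and *Hipk1* (0.769).

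In 1 of 2 signs of RNA quality 3 of the T10 livers stood apart. For the GAPDH controls on the array, the 3' to 5' intensity ratio in T10 replicates 3, 4 and 5 was 1.58, 1.51 and 1.33, and that of other livers ranged from 0.970 to 1.25. The actin ratio of these 3 was 2.43, 2.37 and 2.35, within the 1.84 to 2.89 of the other livers. With those 3 left out, T10 differed from C by -0.46 for *Mlxipl*, -0.53 for *Srebf1* and -0.66 for *Insig1* (adjusted p = 0.445, 0.79 and 0.797), and 2 SREBP-1c targets were called lower. The labels of C replicate 3 and CI replicate 3 list the same normalization parameters; the 2 arrays correlated at 0.9663, within the range of livers on different diets, and were kept. Without both, the T20 call of *Mlxipl* stood (adjusted p = 0.0171) and those of *Pklr* in T20 (0.0688) and *Insig1* in S (0.0709) did not.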

How the data were processed

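Total RNA of 30 rat livers was labelled in 1 cycle and hybridised to Affymetrix arrays. Per the labels, the authors normalized with SuperNORM; each probe set has a deposited linear intensity whose reference level the sources used here do not give. Of 31099 probe sets 57 controls were left out. Intensities under 16 were set to 16 before log2 was taken, and the 18625 probe sets with a mean above the 40th percentile (log2 7.39) were tested. Gene names came from the platform annotation (20826 probe sets with 1 symbol, 436 with several, 9780 with none), and the brightest tested probe set stood for a gene. limma 3.58.1 in R 4.3.3 fitted group means of all 30 arrays (24 residual degrees of freedom, variance trend). Non-members named are a set list of 13 genes and the 3 genes most like each member; others were named where few were called. Members and lists were chosen with earlier results of these data known. Replicate numbers were not taken as pairs. A check on simulated data preceded the fits. Alternatives were other floors, scalings and filters, no trend, array weights, only the compared groups, a replicate block, probe set means and arrays left out; leaving out the 5 livers of high *Dbp*, the target list counts under other settings and 2 promoter motifs were added after seeing the data. Figures used matplotlib 3.10.9 under Python 3.11.15.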

Additional observations from a re-analysis of the deposited data

Results flagged for a closer look

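In 5 of 78 sets of 5 livers (1 diet, 1 probe set) the highest or lowest liver stood apart from the other 4 by more than 0.71 of the range; chance alone flags about 1 in 20 such sets. *Srebf2*, by its brighter probe set, was 10.63 in S replicate 1 and 11.14 to 11.31 in the other S livers. *Insig2* by its brighter probe set was 13.29 in CI replicate 4 and 13.44 to 13.48 in the other CI livers. By its second probe set *Insig2* was 14.17 in C replicate 1, where the other C livers lay at 12.39 to 12.77. The second probe set also read 12.63 in CI replicate 5 and 13.52 to 13.65 in the other 4. *Txnip* was 12.40 in T10 replicate 5 and 11.95 to 12.03 in the rest of T10; the *Dbp* level of that liver was 10.97 and its GAPDH ratio 1.33. The part of either in these values was not tested.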

How the results depend on the processing

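No difference that was called changed sign under any alternative; 66 sign changes concerned differences that were not called. Moves in the number of the 8 genes called included the following. Quantile normalization gave 1 for SI against C, where none was called before, and added *Insig1* to the calls of T20 against C (adjusted p = 0.0357). Median centring gave 1 for T20 against SI, in place of 2. Of 13 settings other than single livers left out, 3 called *Insig1* in T20 against C. *Mlxipl* in T20 against SI was called in 1 of the 13 (adjusted p = 0.0212). Without the brightness filter T20 against C and T20 against SI gave 1 each, since more probe sets were tested. Array weights gave 2 for the F test, 1 for T10 against C and 1 for T20 against C. Fits of only the compared groups gave 0 for T20 against C, 2 for SI against CI and 0 for T20 against SI. Without C replicate 3 and CI replicate 3 the counts were 0 for S against C, 1 for SI against C, 1 for T20 against C and 2 for SI against CI. Without the 5 livers of high *Dbp* they were 2 for S against C and 1 for SI against C. With the replicate number as a block S against C gave 2 and SI against C 1; the numbers did not pair the livers (75 same-number pairs, of which 22 correlated above 0.1, range -0.277 to 0.35, with 9 of 30 arrays closest to their own number). Leaving out 1 liver gave 2 to 4 for the F test, 0 to 2 for S against C, 0 to 1 for SI against C, 1 to 3 for T20 against C, 0 to 2 for SI against CI and 0 to 3 for T20 against SI. Intensities near the floor are not in play, since all but 1 of the 13 probe sets lie above the filter level.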
